A study of Mus musculus with 8 samples.

Results

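The albumin family genes Alb, Afp, Afm and Gc were examined for the repressive histone mark H3K27-me3 in livers of JMJD3-floxed mice. The 4 genes were chosen by name in the GENCODE annotation of the mouse genome (mm10) on chromosome 5, out of 21938 protein-coding genes. All enriched regions within 200 kb of these genes were taken from the deposited lists, and Afp, which is used by fetal liver, was set beside Alb, Afm and Gc, which are used by adult liver. The rule used no measured value. It found 12 of the 59267 regions in the AAV-TBG-Cre list and 2 of the 34586 regions in the AAV-GFP list. No region of either list lay inside any of the 4 genes, and the share of all genes with a region inside is not given here. Within 50 kb of a start site, 0 of the 4 had a region, beside 61.7% of all protein-coding genes in AAV-TBG-Cre and 46.6% in AAV-GFP.

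Albumin family proteins are secreted carriers made by hepatocytes. Albumin (Alb) carries fatty acids and hormones and holds water in the circulation, α-fetoprotein (Afp) takes much of this place before birth, afamin (Afm) binds vitamin E, and the vitamin D binding protein (Gc) carries vitamin D and scavenges actin. The genes arose by duplication and lie close to each other. Afp is shut down in hepatocytes after birth and can return in regenerating liver and liver cancer, whereas Alb stays active. H3K27-me3 is placed by the Polycomb enzyme EZH2, often in wide domains over silent developmental genes, and is removed by the demethylases UTX and JMJD3, the latter encoded by Kdm6b.

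The mice were C57BL/6 males that all carried the floxed JMJD3 allele, controls included. At 8 weeks of age they received AAV-TBG-Cre, to downregulate JMJD3, or the control virus AAV-GFP, and livers were taken 12 weeks afterwards from animals that had gone 16 h without food. Each virus group had 2 H3K27-me3 libraries and 2 input libraries from 2 mice, 8 libraries in all. TBG is a promoter of hepatocytes, so endothelial, stellate, immune and bile duct cells of the same tissue are not the target of Cre and remain in the chromatin of both groups. In bulk chromatin of this kind, fewer marked cells and less mark per cell cannot be told apart.

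The deposited data hold 1 pooled list of regions for each virus group. The lists hold no value per mouse, so variation between mice was not analysed here, no test between groups was made, and the order of distances among the genes has no error. The AAV-TBG-Cre list covered 2.71% of the genome with a median region width of 753 bp, and the AAV-GFP list covered 0.548% with a median of 231 bp. A q-value of 0.05 or lower was held by 88.6% and 46.8% of regions, respectively. Read depth is unknown. The number of regions near a gene thus depends on the list as well as on the mice, and the 2 cannot be told apart here. The lowest fold enrichment listed was 1.54 in AAV-TBG-Cre and 1.45 in AAV-GFP. Where no region was listed, H3K27-me3 did not pass the peak caller, which does not show that the mark was absent.

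The promoters of the 4 genes are shown because no region of either list touched them. They are bases upstream of the RefSeq start site on GRCm38.p6, written 5′ to 3′ on the strand of the gene. For Alb, Afp and Gc they are the 250 bases before it, and for Afm 233 bases, cut where the GENCODE start site of Afm begins. The RefSeq start sites of Alb (90460870) and Afp (90490714) lie before the GENCODE ones (90460897 and 90490737), from which distances were measured. Capitals mark each CpG dinucleotide. Alb (plus strand) was read from chr5:90460620-90460869, Afp (plus strand) from chr5:90490464-90490713, Afm (plus strand) from chr5:90518699-90518931 and Gc (minus strand) from chr5:89457899-89458148.
Alb: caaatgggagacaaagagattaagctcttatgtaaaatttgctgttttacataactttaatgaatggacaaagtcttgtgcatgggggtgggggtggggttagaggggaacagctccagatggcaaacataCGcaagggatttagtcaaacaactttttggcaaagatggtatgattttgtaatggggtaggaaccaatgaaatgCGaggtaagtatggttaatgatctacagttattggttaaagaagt
Afp: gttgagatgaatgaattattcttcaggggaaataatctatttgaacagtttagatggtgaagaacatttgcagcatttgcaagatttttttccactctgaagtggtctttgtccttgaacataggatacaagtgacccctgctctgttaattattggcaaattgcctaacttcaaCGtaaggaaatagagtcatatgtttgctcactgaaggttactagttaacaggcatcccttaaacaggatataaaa
Afm: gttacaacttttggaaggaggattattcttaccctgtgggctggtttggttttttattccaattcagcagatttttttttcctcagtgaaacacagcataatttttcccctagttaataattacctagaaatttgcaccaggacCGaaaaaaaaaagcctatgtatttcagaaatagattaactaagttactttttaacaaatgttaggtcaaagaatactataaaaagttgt
Gc: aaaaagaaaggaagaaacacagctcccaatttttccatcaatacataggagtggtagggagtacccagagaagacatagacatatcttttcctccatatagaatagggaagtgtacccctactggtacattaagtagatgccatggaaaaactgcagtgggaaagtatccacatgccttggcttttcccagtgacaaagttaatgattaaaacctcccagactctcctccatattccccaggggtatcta

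Searched on both strands in the 250 bases before the RefSeq start site, the letters CCAAT were present in 4 of 4 members and in 33.8% of 32851 RefSeq promoters, and TATAAA in Afp and Afm and in 12.4% of all promoters. Neither motif holds the other. The match of letters is a description of the sequence and not evidence of binding.

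The promoters were poor in CpG dinucleotides, which are dense in the CpG islands where Polycomb marks are often found. The 300 bases from 250 before to 50 after the RefSeq start site held 3 CpG in Alb, 3 in Afp, 1 in Afm and 0 in Gc, against a median of 7 over all promoters. Of these, 2 in Alb, 1 in Afp and 1 in Afm lie in the bases printed. The GC content was 40.0% in Alb and Afp, 33.0% in Afm and 40.3% in Gc, against a median of 52.7%. Afp thus carried the same number of CpG as Alb, and 23.3% of promoters had fewer.

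Alb, Afp and Afm lie in a row on the plus strand. Alb (ENSMUSG00000029368.10, chr5:90460897-90476602, 15 exons) ends 14134 bp before Afp (ENSMUSG00000054932.6, chr5:90490737-90508907, 15 exons). Afp ends 10024 bp before Afm (ENSMUSG00000029369.17, chr5:90518932-90553543, 15 exons). Gc (ENSMUSG00000035540.12, chr5:89417522-89457898, 13 exons) is on the minus strand, 1002998 bp away from Alb. The window of 200 kb around the first 3 genes measured 492.6 kb and the window around Gc 440.4 kb, and neither held unsequenced bases.

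Around Alb, Afp and Afm, the AAV-TBG-Cre list held 9 regions that covered 8177 bp (1.66%) of the window, and the AAV-GFP list held 0. Around Gc, the AAV-TBG-Cre list held 3 regions that covered 4742 bp (1.08%), and the AAV-GFP list held 2 that covered 1688 bp (0.383%). All of them were outside the albumin family genes. In total, 4 members had an AAV-TBG-Cre region within 200 kb of the gene, beside 86.6% of all protein-coding genes, and 1 member, Gc, had an AAV-GFP region, beside 80.2%. Alb, Afp and Afm, 3 of the 4 members, had a region in AAV-TBG-Cre and none in AAV-GFP, as did 9.35% of all genes. The reverse held for 0 members and for 2.92% of all genes. These 3 genes share the same flanking sequence and count as a single observation.

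**Figure D1:**
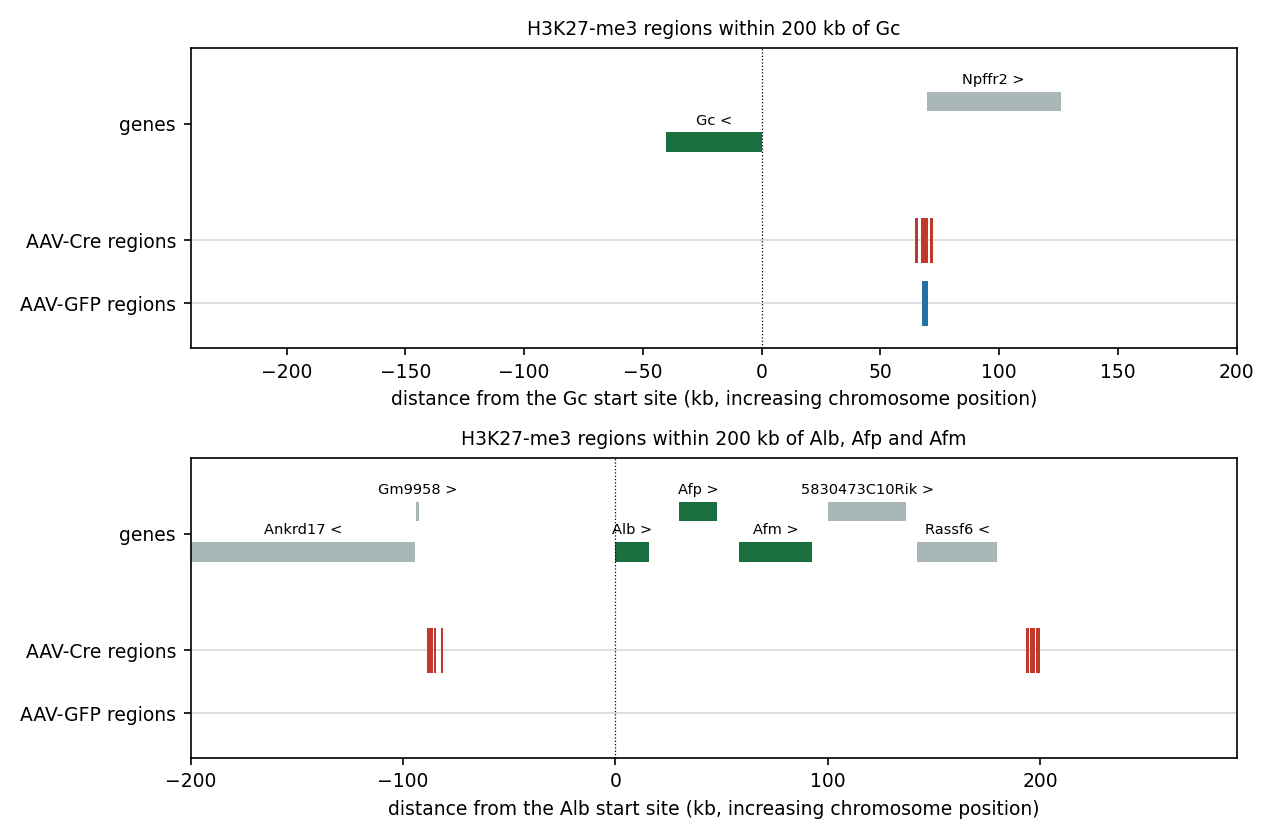
Genes (top row of each panel, members in green, arrows for strand) and H3K27-me3 regions of the AAV-TBG-Cre list (red, named AAV-Cre) and AAV-GFP list (blue), against the distance in kb from the start site of Gc (upper panel) or Alb (lower panel), with narrow regions drawn at a minimum width. The 9 AAV-TBG-Cre regions of the lower panel form a group on each side of Alb, Afp and Afm, the AAV-GFP row is empty there, and around Gc both lists have regions at the start of Npffr2.

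The AAV-TBG-Cre regions on the upstream side of Alb formed a group of 4 within 7477 bp (chr5:90372367-90379843). The widths were 736, 748, 899 and 1112 bp in order along the chromosome, and the fold enrichments over input were 3.17, 2.64, 3.12 and 3.47. The group was intergenic, between the predicted gene Gm9958 and Alb, and its last region (chr5:90378732-90379843, q-value 2.27e-05) was 81.1 kb from the Alb start site. By p-value the 4 regions stood between percentiles 32.5 and 71.3 of their own list, so they were of middling strength. The closest AAV-GFP region was 379.2 kb away from the group. Repeats made up from 3.60 to 65.8% of the bases of these regions, the highest share being in the region of 736 bp.

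The AAV-TBG-Cre regions on the downstream side formed a group of 5 within 6113 bp (chr5:90654360-90660472). Their fold enrichments were 3.05, 2.47, 3.60, 3.30 and 2.90 in order along the chromosome. The strongest by p-value was 1641 bp wide (chr5:90657013-90658653) at a fold enrichment of 3.60 (q-value 5.93e-06). This group was intergenic too, and began 13.7 kb beyond the start site of Rassf6, which encodes a Ras association domain protein. The closest AAV-GFP region was 98.6 kb away from the group.

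Near Gc, regions of both lists lay at the start of a gene. The strongest AAV-TBG-Cre region of all 12 (chr5:89524892-89527869) was 2978 bp wide over the start site of Npffr2, a receptor for neuropeptide FF, at a fold enrichment of 8.17 (q-value 1.99e-28) and percentile 96.5 of its list by p-value. It overlapped both AAV-GFP regions of the window. These were 258 bp wide (chr5:89525396-89525653, fold enrichment 2.67, q-value 0.0222) and 1430 bp wide (chr5:89526290-89527719, fold enrichment 2.08, q-value 0.0977). Folds are scaled within each list and were not compared between lists. The remaining AAV-TBG-Cre regions there were 1333 bp in an intron of Npffr2 (chr5:89528635-89529967, fold enrichment 4.91) and 431 bp between Gc and Npffr2 (chr5:89522627-89523057, fold enrichment 2.38, q-value 0.0573). Thus 1 of 12 AAV-TBG-Cre regions overlapped an AAV-GFP region by at least 1 bp, and 2 of 2 AAV-GFP regions overlapped an AAV-TBG-Cre region.

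Stretches of 200 bases from both settings are shown to compare their base composition, on the plus strand of GRCm38 with each CpG in capitals. The first is centred on the summit of the AAV-TBG-Cre region nearest to Alb (chr5:90379228-90379427), and the second ends at the base before the first RefSeq start of Npffr2, inside regions of both lists (chr5:89526640-89526839).
Upstream of Alb: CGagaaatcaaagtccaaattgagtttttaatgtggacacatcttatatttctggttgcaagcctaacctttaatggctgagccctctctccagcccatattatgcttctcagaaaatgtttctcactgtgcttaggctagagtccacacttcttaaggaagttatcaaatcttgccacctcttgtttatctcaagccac
Upstream of Npffr2: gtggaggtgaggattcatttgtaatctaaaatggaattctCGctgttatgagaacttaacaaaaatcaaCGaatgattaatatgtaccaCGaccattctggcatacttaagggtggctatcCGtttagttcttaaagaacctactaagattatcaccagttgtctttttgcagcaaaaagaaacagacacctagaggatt

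The stretch upstream of Alb held 1 CpG at a GC content of 40.5%, and the stretch upstream of Npffr2 held 4 CpG at 36.5%. These stretches were placed by different rules. In the whole AAV-TBG-Cre regions the order of GC content was the reverse, 44.4% near Alb and 48.0% over the start site of Npffr2. Over whole regions, CpG density ran from 0.936 to 3.53 per 100 bases in the 12 AAV-TBG-Cre regions and was 1.16 and 2.73 in the 2 AAV-GFP regions. The median of the lists was 1.32 and 1.46, respectively. The regions near the albumin family were therefore spread on both sides of the list medians in CpG density.

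The distance from each start site to the nearest region was then compared with that of all protein-coding genes. In AAV-TBG-Cre it was 64.7 kb for Gc, 81.1 kb for Alb, 110.9 kb for Afp and 135.4 kb for Afm, against a median of 26.7 kb over all genes with quartiles of 1.57 and 99.8 kb. In AAV-GFP it was 67.5 kb for Gc, 240.1 kb for Afm, 268.3 kb for Afp and 298.1 kb for Alb, against a median of 58.3 kb with quartiles of 10.9 and 174.1 kb. All 4 genes were thus farther from a region than the median gene in both lists. Afp was neither nearest nor farthest in either list, and stood between Alb and Afm in both.

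The position of Afp in this order follows from the map. In AAV-TBG-Cre the nearest region of both Alb and Afp was the same one upstream of Alb, and Afm, at 139.1 kb from it, was nearer to the downstream group at 135.4 kb. In AAV-GFP the nearest region of all 3 genes was a single one of 597 bp over the start of Cxcl5 (chr5:90759037-90759633), so that the distance shrank from Alb to Afm with their place in the row. The distances of the 3 genes are therefore not independent of each other.

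The share of protein-coding genes with a shorter distance in AAV-TBG-Cre was 66.8% for Gc, 71.1% for Alb, 76.8% for Afp and 80.1% for Afm. In AAV-GFP the share was 53.4% for Gc, 82.2% for Afm, 84.1% for Afp and 86.1% for Alb. Gc, whose nearest regions were those at Npffr2, was close to the middle of all genes in AAV-GFP, while the other 3 were in the upper range. With a limit of 15 kb from a start site, 0 of 4 members were called in either list, beside 41.5% of all genes in AAV-TBG-Cre and 27.9% in AAV-GFP. At 1 kb it was 0 of 4 beside 23.9% and 16.6%, and at 5 kb 0 of 4 beside 30.1% and 20.5%. At 50 kb it was still 0 of 4, beside 61.7% and 46.6%. At 100 kb, 2 members (Gc and Alb) were called in AAV-TBG-Cre beside 75.0%, and 1 (Gc) in AAV-GFP beside 62.1%. At 200 kb, 4 members were called in AAV-TBG-Cre beside 85.6%, and Gc alone in AAV-GFP beside 78.2%.

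**Figure D2:**
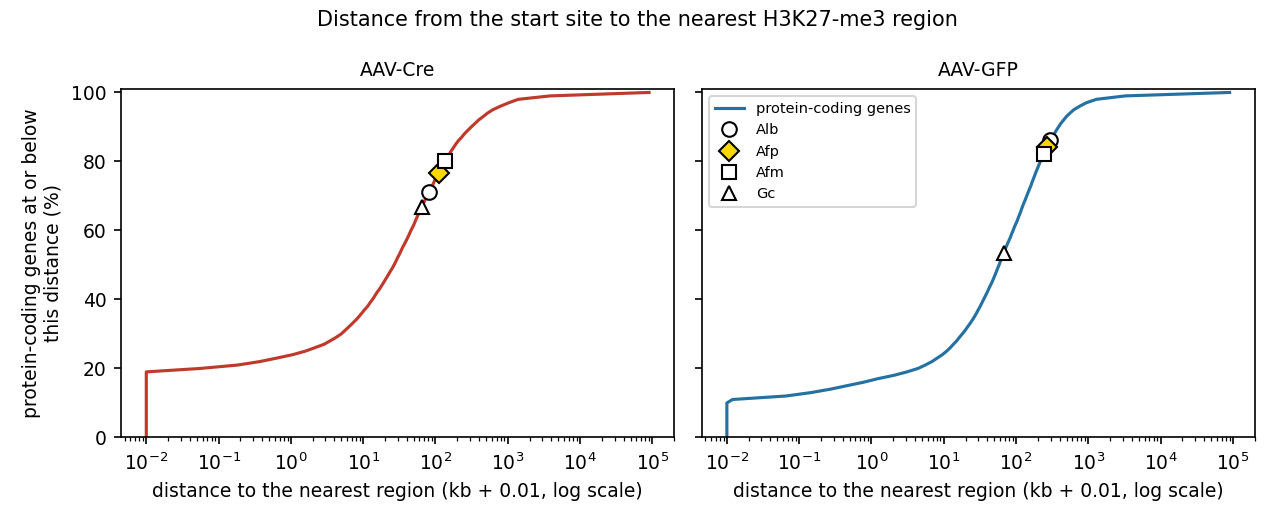
Percent of 21938 protein-coding genes (vertical axis) whose start site lies at or below a given distance from the nearest H3K27-me3 region (horizontal axis, kb + 0.01, log scale), for AAV-TBG-Cre (left, titled AAV-Cre) and AAV-GFP (right), with the 4 members as symbols on the curve. Afp (yellow) lies between Alb and Afm in both panels, and Gc is the lowest symbol in both.

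Long stretches without any region surrounded these genes in both lists. The median gap between neighbouring regions was 1.74 kb in AAV-TBG-Cre and 1.08 kb in AAV-GFP. A gap picked because it holds a gene tends to be long, while all gaps were counted alike. The shares of longer gaps, here and around Gc, therefore do not rank these genes among other genes. In AAV-TBG-Cre the stretch that holds Alb, Afp and Afm measured 274.5 kb (chr5:90379844-90654359), and 3.43% of the gaps between neighbouring regions were longer. It also held the start sites of 5830473C10Rik, named Albfm1 in RefSeq as a further member of the albumin superfamily, and of Rassf6. In AAV-GFP the stretch measured 875.2 kb (chr5:89883818-90759036), and 1.84% of the gaps were longer. It held 8 protein-coding start sites, those of Cox18, Ankrd17 and Gm9958 in addition to the 5 of the shorter stretch. The longer AAV-GFP stretch ended at the chemokine gene Cxcl5, 5494 bp beyond the window.

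The stretch around Gc was nearly the same in both lists. It measured 836.8 kb in AAV-TBG-Cre (chr5:88685810-89522626), with 0.842% of gaps longer, and 839.7 kb in AAV-GFP (chr5:88685708-89525395), with 1.96% longer. Both held the start sites of the same 4 genes, Mob1b, Dck, Slc4a4 and Gc. Slc4a4, a bicarbonate cotransporter, and Dck, a nucleoside kinase, are the neighbours of Gc on its downstream side, where the nearest region was 772.1 kb (AAV-TBG-Cre) or 772.2 kb (AAV-GFP) from the Gc start site.

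The genes next to the members varied widely in distance. Npffr2 had a region over its start site in both lists. Ankrd17, which encodes an ankyrin repeat protein, was 5.79 kb from an AAV-TBG-Cre region and 392.5 kb from an AAV-GFP region. For Gm9958 the distances were 5.16 and 391.8 kb, for Rassf6 13.7 and 118.4 kb, and for 5830473C10Rik 93.1 and 197.8 kb, in the same order. Of these 5 neighbours, the albumin superfamily gene 5830473C10Rik had the longest distance in AAV-TBG-Cre, and Ankrd17 and Gm9958 had the longest in AAV-GFP, longer than those of the 4 members.

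Base composition around the members was low in GC, and genes in such sequence had the longest distances to a region. Within 200 kb of each gene, the GC content was 40.2% for Alb, 40.7% for Afp, 40.8% for Afm and 39.9% for Gc, which put all 4 in the class of lowest GC when protein-coding genes were divided into 5 classes. In that class the median distance to a region was 202.8 kb in AAV-TBG-Cre and 203.9 kb in AAV-GFP. Against these genes the members were not far from a region in AAV-TBG-Cre, where 30.3% (Gc), 33.3% (Alb), 38.1% (Afp) and 41.8% (Afm) of the class were nearer. In AAV-GFP, 27.6% (Gc), 54.6% (Afm), 58.4% (Afp) and 62.1% (Alb) of the class were nearer. The class runs from 35.6 to 40.8% GC, so the members stand at its upper edge. In the next class, from 40.8 to 43.1% GC, the median distance was 47.8 kb and 86.4 kb, and 33.5% and 24.4% were within 15 kb.

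Coverage of the 200 kb surroundings was compared with the same classes. In AAV-TBG-Cre, regions covered 1.97% of the surroundings of Alb, 1.96% of those of Afp, 1.88% of those of Afm and 1.08% of those of Gc, against a median of 2.82% over all genes and 0.0893% over the class of lowest GC. In the next class the median was 1.21%. In AAV-GFP, the coverage was 0% for Alb, Afp and Afm and 0.383% for Gc, against a median of 0.411% over all genes, 0.0292% over the class of lowest GC and 0.167% over the next. A coverage of 0% in AAV-GFP was shared by 19.8% of all genes, 47.8% of the class of lowest GC and 24.3% of the next, and Alb, Afp and Afm stand near the border of these 2 classes. The part of base composition in the coverage of the members was not tested.

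**Figure D3:**
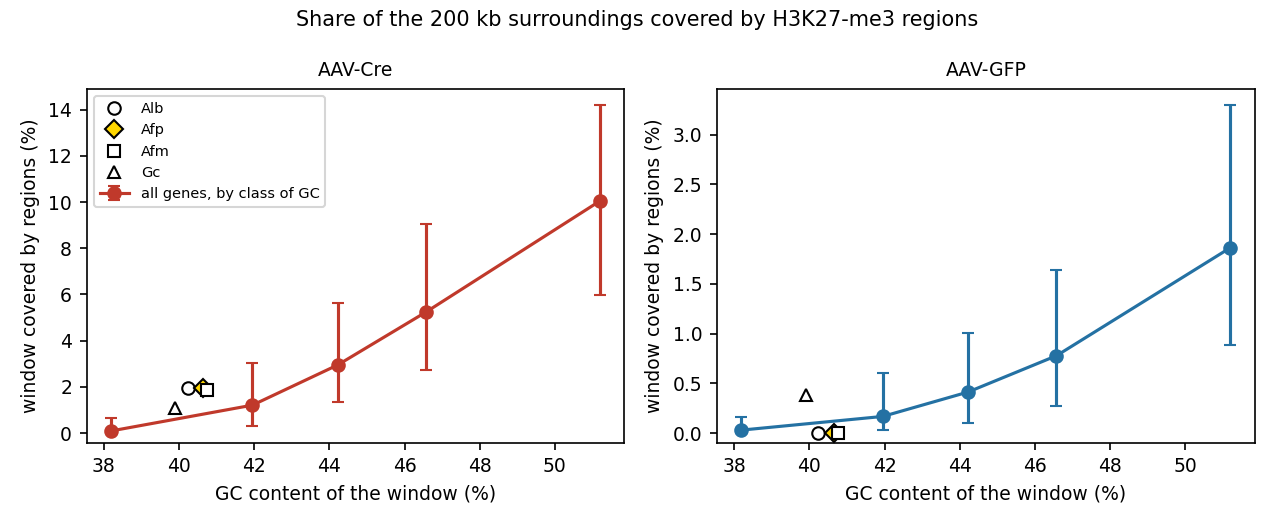
Share of the 200 kb surroundings of a gene covered by H3K27-me3 regions (vertical axis, %, with a different scale in each panel) against the GC content of the same sequence (horizontal axis, %), for AAV-TBG-Cre (left, titled AAV-Cre) and AAV-GFP (right). Filled circles are medians of 5 classes of protein-coding genes, drawn at the middle of the class, with bars for the quartiles, and in AAV-GFP Alb, Afp and Afm lie at 0% while Gc lies at 0.383%.

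To set Afp beside other genes that fetal liver uses and adult liver shuts down, 12 such genes were measured likewise. All of these 12 had a region within 15 kb of a start site in AAV-TBG-Cre (100%, Wilson 95% interval 75.8 to 100%) and 11 in AAV-GFP (91.7%, interval 64.6 to 98.5%), beside 41.5% and 27.9% of all genes. In both lists the region lay over a start site in 11 of the 12, beside 19.5% and 11.0% of all genes, and the median distance was 0 kb. Afp was 110.9 and 268.3 kb from a region, farther than every gene of this list in both lists. The q-value of the nearest region was at most 0.05 in 12 of these 12 and in 10 of these 11. The members were chosen with earlier results of these data known, and the intervals cover counting error only.

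The fetal genes with the widest regions in AAV-TBG-Cre were the growth factor gene Igf2 and the RNA-binding protein gene Igf2bp3. Over Igf2 a region of 18266 bp with a fold enrichment of 14.2 was listed in AAV-TBG-Cre and one of 4419 bp with a fold enrichment of 4.55 in AAV-GFP. Over Igf2bp3 the regions measured 17824 bp (fold enrichment 16.1) and 4519 bp (fold enrichment 8.78). H19, a noncoding RNA gene that neighbours Igf2 and is shut down after birth like Afp, had regions of 4620 and 896 bp over its start site. Gpc3, a cell surface proteoglycan gene that is used with Afp as a marker of liver cancer, had regions of 2904 and 1198 bp.

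Peg3 was the exception among the fetal genes, with a region 292 bp from a start site in AAV-TBG-Cre and the nearest AAV-GFP region 182.7 kb away. It is 1 of 6 imprinted genes of the list, along with H19, Igf2, Dlk1, Mest and Plagl1, in which the parental copies differ in activity. The 6 genes that are not imprinted were Gpc3, Igf2bp1, Igf2bp2, Igf2bp3, Lin28b and Hmga2. Each of these 6 had a region over a start site in both lists. The contrast with Afp was thus present in these 6 genes as well. This split was chosen after seeing the data, and the part of imprinting in the contrast was not tested.

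Most promoters of the fetal list held more CpG than that of Afp. Of the fetal liver genes, 10 of 12 matched a RefSeq promoter, and their CpG count ran from 2 in Igf2 to 47 in Igf2bp2 with a median of 12.5, against 3 in Afp. Only 1 of the 10 was at or below the median of 7 over all promoters. Of the promoters with 3 to 5 CpG, 40.5% had an AAV-TBG-Cre region within 15 kb and 21.7% an AAV-GFP region. In the class with 6 to 10 CpG it was 51.3% and 30.3%. The part of promoter CpG content in the contrast between Afp and the fetal list was not tested.

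Adult plasma protein genes, to which Alb, Afm and Gc belong by function, were less often near a region than the share of all genes. Of 30 such genes, 2 (6.67%, interval 1.85 to 21.3%) had a region within 15 kb in AAV-TBG-Cre and 1 (3.33%, interval 0.591 to 16.7%) in AAV-GFP, beside 41.5% and 27.9% of all genes. Within 1 kb it was 0 of 30 in either list, beside 23.9% and 16.6%. The intervals of this and the other lists treat genes as independent. Some genes lie together, such as Ahsg, Fetub and Hrg, so the intervals are too narrow to that extent. The genes within 15 kb were Vtn, which encodes vitronectin, at 1726 and 1885 bp in the 2 lists, and Ambp, which encodes the precursor of α1-microglobulin and bikunin, at 12770 bp in AAV-TBG-Cre and 16558 bp in AAV-GFP. The median distance of the 30 genes was 71.1 kb in AAV-TBG-Cre and 113.6 kb in AAV-GFP. The medians over the 4 albumin family genes were 96.0 and 254.2 kb. Farther from a region than Afp were 9 of the 30 in AAV-TBG-Cre and 4 in AAV-GFP.

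The genes most like each member were found among the 42 adult plasma protein and fetal liver genes by the Euclidean distance over log10(distance in bp + 1) in the 2 lists. For Afp the nearest were Fetub (109.9 and 262.2 kb), Hrg (142.0 and 294.9 kb) and Ahsg (82.8 and 235.1 kb), which encode proteins secreted by liver, lie together on chromosome 16 and share the same nearest AAV-GFP region. For Alb they were Ahsg, Cp and Fetub, and for Afm they were Hrg, Fetub and Serpina1a. For Gc they were Apoe (66.1 and 69.7 kb), Fga (70.6 and 73.4 kb) and Ttr (74.3 and 78.1 kb). All were adult plasma protein genes. The measure uses the distances already given, and the fetal genes lay within 0.292 kb of an AAV-TBG-Cre region, so it adds no separate evidence.

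**Figure D4:**
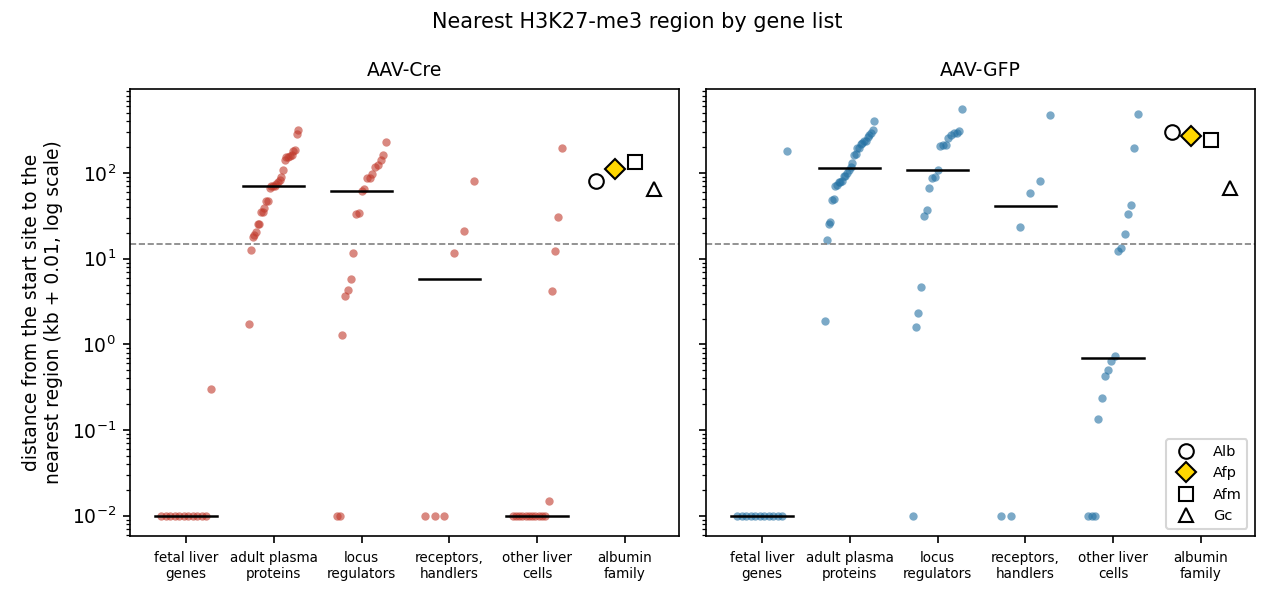
Distance in kb (log scale, with 0.01 kb added) from the start site to the nearest H3K27-me3 region for each gene of 5 lists and for the 4 members, in AAV-TBG-Cre (left, titled AAV-Cre) and AAV-GFP (right), with list medians as bars and the limit of 15 kb as a dashed line. Fetal liver genes sit at 0 kb except Peg3, whereas Afp (yellow) lies at 110.9 and 268.3 kb in the range of the adult plasma proteins.

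Factors known to act on Alb and Afp were examined as genes in their own right. Of 19 such regulators, 7 (36.8%, interval 19.1 to 59.0%) had a region within 15 kb in AAV-TBG-Cre and 4 (21.1%, interval 8.51 to 43.3%) in AAV-GFP, near the 41.5% and 27.9% of all genes. The 4 in both lists were Nr2f1 and Nr2f2, nuclear receptors of the COUP family, Gata4, a GATA factor, and Dbp, named for its binding to a site in the Alb promoter. Foxa2, Cebpb and Onecut1, liver transcription factors, had a region in AAV-TBG-Cre alone, at 5832, 11745 and 3626 bp with fold enrichments of 2.38, 2.28 and 2.60. They were 3 of the 19, near the 14.8% of all protein-coding genes called within 15 kb in AAV-TBG-Cre alone. The q-value of the nearest region was at most 0.05 in 6 of the 7 regulators in AAV-TBG-Cre and in 4 of 4 in AAV-GFP. The exception was Foxa2 (q-value 0.0573). The difference between lists was not tested.

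The postnatal repressors of Afp had no region within 15 kb in either list. Only 41.5% of all protein-coding genes had one in AAV-TBG-Cre and 27.9% in AAV-GFP, so most genes had none either. Zhx2 was 61.3 kb from the nearest AAV-TBG-Cre region and 554.4 kb from the nearest AAV-GFP region, and Zbtb20 was 125.2 and 290.2 kb away. Hnf4a, a master regulator of hepatocytes, was 86.6 and 87.5 kb away. These 3 genes were named after their values were seen, since the rule for named genes takes those within 15 kb.

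Of 6 genes that recover or recycle albumin and vitamin D binding protein, 4 (66.7%, interval 30.0 to 90.3%) had a region within 15 kb in AAV-TBG-Cre and 2 (33.3%, interval 9.68 to 70.0%) in AAV-GFP, beside 41.5% and 27.9% of all genes. The kidney receptor gene Lrp2, which encodes megalin, and Amn, which encodes the partner of cubilin, had a region over a start site in both lists. Dab2, an adaptor of megalin, had a region over a start site in AAV-TBG-Cre alone, and the nearest AAV-GFP region was 474.0 kb away. Fcgrt, the receptor that recycles albumin, was 11.5 kb from an AAV-TBG-Cre region and 58.9 kb from an AAV-GFP region. Dab2 and Fcgrt, 2 of the 6, were thus called within 15 kb in AAV-TBG-Cre alone, beside 14.8% of all protein-coding genes.

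The tissue label could not be checked directly, since no expression was measured in these files. Of 16 marker genes of other liver cells (macrophages, endothelium, stellate cells and bile duct cells), 14 (87.5%, interval 64.0 to 96.5%) had a region within 15 kb in AAV-TBG-Cre and 11 (68.8%, interval 44.4 to 85.8%) in AAV-GFP, beside 41.5% and 27.9% of all genes. The q-value of the nearest region was at most 0.05 in 12 of these 14 and in 7 of these 11. The macrophage markers Cd5l (30.3 and 42.7 kb) and Vsig4 (196.1 and 196.6 kb) had no region within 15 kb in AAV-TBG-Cre and AAV-GFP. The macrophage markers Adgre1 and Clec4f (q-value 0.0573) had one in AAV-TBG-Cre alone, with AAV-GFP regions 19.4 and 33.2 kb away. So did the endothelial marker Clec4g, 495.2 kb from an AAV-GFP region. These last 3 of the 16 stand beside 14.8% of all genes. The genes were named after their values were seen. The hepatocyte gene Alb had no region within 15 kb in either list.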

How the data were processed

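H3K27-me3 ChIP-seq data were generated by the authors from liver chromatin of 2 mice per virus group, with 2 H3K27-me3 and 2 input libraries each. Per the labels and the study's methods, reads were processed with the AQUAS pipeline with a pooled input, aligned by bwa 0.7.13 against mm10, cleaned by Samtools 1.2 and Picard 1.126, and passed to MACS for peak calling. Regions that overlapped across replicates were kept. Each of the 2 deposited lists was made from both replicates and gives no value per mouse. Regions are narrow peaks, so a broad domain can be listed as several regions.

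The deposited lists give, for each region, a fold enrichment over input (a ratio), the −log10 of a p-value and of a q-value, a summit offset and a display score. The deposited score was not used. Absolute depth is unknown because the files hold no counts. Groups were taken from the labels.

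Distances were computed from start sites of basic protein-coding transcripts (GENCODE M21, 21 chromosomes) with Python 3.11.15, numpy 2.4.6, pandas 2.3.3, scipy 1.17.1 and pysam 0.24.0. Figures were drawn with matplotlib 3.10.9. Coverage was taken over the gene extended by 200 kb on each side. GC classes hold about 4388 genes each. Overlap required 1 bp. A region within 15 kb of a gene can be nearer to another gene. Distance and coverage functions were tested on simulated data and equalled a direct search in 100% of 2000 queries each. Merging was not compared with a direct search. It was checked only for gaps between merged regions longer than the merging distance.

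The members, the 5 gene lists and the design were chosen with earlier results of these data known. The genes and regions named are the members, protein-coding genes with a start site in the windows, the nearest region on each side of a member, the 5 regions of lowest p-value per list, list genes within 15 kb of a region (at most 8 per list) and the 3 genes most like each member. Alternatives were q-value thresholds of 0.05 and 0.01, equal numbers of 34586 top regions, merging within 1 or 5 kb, windows of 50, 100 and 500 kb, limits of 1, 5 and 50 kb, the gene span in place of the start site, and overlap over at least 0.5 of a region or within 1 kb. Sequences were copied from RefSeq (GRCm38.p6), where all 4 members matched. A gene of the regulator list is counted but not reported here by name.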

Additional observations from a re-analysis of the deposited data

How the results depend on the processing

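Members with a region within 15 kb numbered 0 in both lists under all alternatives tried for that count. Only the limit of 50 kb and the gene span could have raised this count. The q-value thresholds, equal numbers of regions and limits of 1 and 5 kb could not, by construction. Of 32 recomputed distances, 28 stayed within 1.5 times their value, and the other 4 were those of AAV-GFP at a q-value of 0.01 or lower: 577080 bp (Alb), 584510 bp (Afp), 556298 bp (Afm) and 424620 bp (Gc). With equal numbers of regions the AAV-GFP distances could not change, since that setting keeps the whole AAV-GFP list. The number of regions and the covered share of the windows, 12 and 1.38% in AAV-TBG-Cre and 2 and 0.181% in AAV-GFP, moved as follows, by the construction of each setting.

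In AAV-TBG-Cre the covered share was 1.34% at a q-value of 0.05 or lower, 1.30% at 0.01 or lower and 1.22% with equal numbers of regions. Merging within 1 kb gave 5 regions and 1.77%, and within 5 kb 3 regions and 2.24%. Windows of 50 kb gave 0 regions and 0%, of 100 kb 7 regions and 1.55%, and of 500 kb 37 regions and 1.51%. Within 1 kb of an AAV-GFP region, 2 AAV-TBG-Cre regions were shared in place of 1.

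For AAV-GFP, 1 region (0.0277%), which was shared, had a q-value of at most 0.05, and 0 regions (0%) had one of at most 0.01. Merging within 1 or 5 kb gave 1 region and 0.249%. Windows of 50 kb gave 0 regions and 0%, of 100 kb 0.317%, and of 500 kb 9 regions and 0.215%. Without imprinted genes, an alternative chosen after seeing the data, 6 of 6 fetal genes had a region within 15 kb in each list.

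No paired analysis was possible because each list pools both replicates, and leaving out each replicate could not be run for the same reason. Depth is unknown in both lists, so a region listed in AAV-TBG-Cre alone is a difference of calls and not of level.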

Other observations

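Between the windows of Gc and of Alb lie 603.0 kb in which the AAV-TBG-Cre list had 16 regions (1.85% of the bases) and the AAV-GFP list 5 (0.334%). Of these, 14 and 4 were in Adamts3, which encodes a procollagen peptidase. Adamts3 was named after its values were seen.

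Just outside the window on the other side, Cxcl5, which encodes a chemokine that attracts neutrophils, had an AAV-TBG-Cre region of 1309 bp over its start site (chr5:90758720-90760028, fold enrichment 7.52, q-value 1.13e-24). The AAV-GFP region there measured 597 bp, at a fold enrichment of 2.62 (q-value 0.0121). Cxcl5 is the closest gene downstream of Afm with a region in both lists.

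The CpG count of promoters and the share with a region did not move together over the whole range. Promoters with 0 to 2 CpG, the class of Afm and Gc, had an AAV-TBG-Cre region within 15 kb in 26.0% and an AAV-GFP region in 14.5%. Promoters with 11 to 20 CpG had one in 49.1% and 33.9%, and those with 21 to 150 CpG in 42.9% and 29.4%. Only 23 of the 30 plasma protein genes matched a promoter (76.7%). A comparison of CpG counts was made only where at least 80% of a list matched, so none was made for this list.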
